A study of Mus musculus with 3 samples.

Results

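The chemokine genes Ccl2, Ccl5, Ccl7, Ccl9, Cxcl1, Cxcl5, Cxcl10, Cxcl12, Cxcl16 and Cx3cl1 were followed across striatal cell lines that carry a normal or an expanded Htt allele. They were taken by gene symbol from the deposited table, with earlier results of these data known. Each of the 10 members has 1 row of its own among 22180 named genes. RNA came from 3 cultures, with 1 array each. Q111-ASOs are STHdhQ111/Q111 cells, whose knock-in Htt carries a humanized exon with 111 glutamine repeats, treated with the morpholino antisense oligos (ASOs) I2E3 and E3I3 at 3 μM of each against the splice sites of Rest exon E3. Q111-Control are STHdhQ111/Q111 cells given a control oligo, and Q7-Control are STHdhQ7/Q7 cells with 7 repeats given the same control. All 3 cultures received 6 μM of the delivery reagent Endo-Porter, were harvested 48 h later and are labelled as strain C57BL6/J. Each genotype is a single immortalized cell line, so an effect of the Htt allele and any other difference between the lines cannot be told apart. As a group has 1 array, no difference has a replicate check or a p-value. The count of genes uses the study's cut of 2-fold in either direction.

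Chemokines are small secreted or membrane-tethered proteins that steer migrating cells through G-protein-coupled receptors, and they are grouped by the spacing of their first conserved cysteines into CC, CXC and CX3C ligands. Many inflammatory members are switched on through NF-kB or interferon signalling, while others, such as Cxcl12, are made without stimulation and position progenitors and leukocytes during development. In the brain, Cx3cl1 is best known as a neuronal ligand of microglia, and Ccl2, Ccl5 and Cxcl10 as signals that draw monocytes and T cells into inflamed tissue.

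The median log2 signal of all rows lay between 5.97 and 6.03 on the 3 arrays. No detection calls were used, so the 95th percentile of 1105 olfactory receptor genes, which these cells should not use, served as a background level. It was 5.77 in Q111-ASOs, 5.82 in Q111-Control and 5.82 in Q7-Control, although probes differ in brightness and the level is only a guide. Rest, the target of the ASOs, had log2 signals of 9.33 in Q111-ASOs, 9.16 in Q111-Control and 9.16 in Q7-Control, and a whole-transcript signal does not separate transcripts with and without exon E3. Of 8 neural progenitor markers measured, 4 were over 2-fold lower in Q111-Control than in Q7-Control, where 2.53% of all genes were. Of the others, 1 had a difference above 0 and 3 were equal. Among the lower ones, Nes and Sox2 had signals of 6.28 and 7.30 in Q111-ASOs, 6.08 and 6.96 in Q111-Control, and 10.21 and 11.34 in Q7-Control. Dlx2, the 1 above 0, had 9.07 in Q111-ASOs, 9.14 in Q111-Control and 8.71 in Q7-Control. Of 7 striatal projection neuron markers measured, Drd1, Drd2, Tac1 and Bcl11b (4 genes) lay below the background level on every array, and Penk, Foxp1 and Rgs9 lay above it on every array. Penk, the enkephalin precursor gene, had 8.22 in Q111-ASOs, 7.96 in Q111-Control and 6.00 in Q7-Control.

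Between the cell lines, Ccl5, Cxcl10, Cxcl1 and Ccl9 were over 2-fold higher in Q111-Control than in Q7-Control, 4 of the 10 members, and Cxcl12 alone (1 member) was over 2-fold lower. The background over all 22180 genes was 2.03% past 2-fold upward and 2.53% downward. As the members were chosen with earlier results of these data known, their counts are no test against these shares. Every member reached the background level on at least 1 of these arrays, as did 13983 genes in all, of which 438 were past 2-fold upward and 553 downward. At 3-fold, 2 members were higher and 0 lower, where 1.05% and 1.15% of all genes were, and at 1.5-fold 2 members were lower, where 5.2% of all genes were. The members did not move together, since 5 lay within 2-fold and their median log2 difference was -0.15, against 0.00 over all genes.

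**Figure D1:**
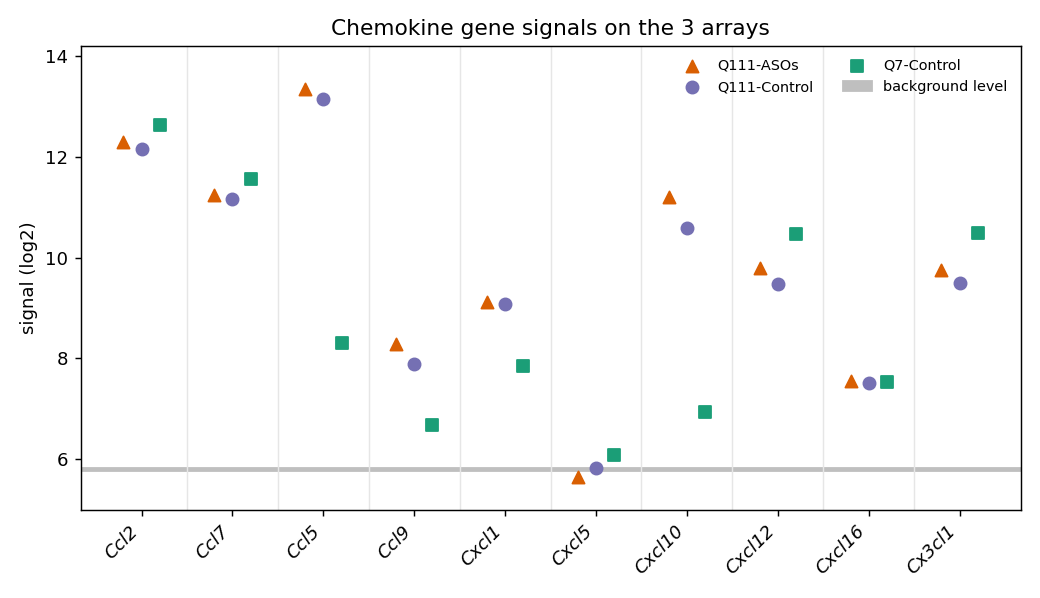
Log2 signal (y axis) of the 10 chemokine genes on the 3 arrays, with 1 point per array and the background level of olfactory receptor genes as a grey band. Ccl5 and Cxcl10 are far higher in both Q111 cultures than in Q7-Control, while Cxcl5 lies near the background level.

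Ccl5, the CC chemokine also known as RANTES that attracts T cells and monocytes, had a log2 signal of 13.34 in Q111-ASOs, 13.15 in Q111-Control and 8.30 in Q7-Control. Both Q111 cultures were high and Q7-Control was low, though still above the background level. The difference of Q111-Control and Q7-Control was 4.85 on the log2 scale, or 28.8-fold, and ranked 9 by size among all increases. The highest signal of any row was 14.08 on the Q111-Control array, so the Ccl5 signal stood near the top of the scale in the Q111 cultures.

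Cxcl10, an interferon-induced ligand of Cxcr3, a chemokine receptor on T cells, followed with log2 signals of 11.21 in Q111-ASOs, 10.60 in Q111-Control and 6.93 in Q7-Control. Its difference between the lines was 3.67, or 12.7-fold, at rank 37 among increases. The 3 arrays were ordered as for Ccl5, with a wider step between the Q111 cultures.

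Cxcl1, a neutrophil-attracting ligand of Cxcr2, had log2 signals of 9.13 in Q111-ASOs, 9.07 in Q111-Control and 7.85 in Q7-Control, and was 2.34-fold higher in Q111-Control than in Q7-Control. Ccl9, a rodent CC chemokine that binds Ccr1, had 8.28 in Q111-ASOs, 7.88 in Q111-Control and 6.69 in Q7-Control, and was 2.29-fold higher. These were much smaller steps than those of Ccl5 and Cxcl10, but both lay above the central 95% of the differences of all genes, whose upper end was 0.86 on the log2 scale. Over the 13983 genes that reached the background level in Q111-Control or Q7-Control, that end was 1.19. Cxcl1, with a difference of 1.23, and Ccl9, with 1.20, lay only just past it. The other Cxcr2 ligand among the members, Cxcl5, had signals of 5.65 in Q111-ASOs, 5.82 in Q111-Control and 6.08 in Q7-Control, and lay below the background level in both Q111 cultures. Against that level it was at least 1.20-fold lower in Q111-Control than in Q7-Control, and the order of the Q111 cultures is not settled.

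Ccl2 and Ccl7, the monocyte chemoattractants read by Ccr2, were strongly expressed in all 3 cultures and did not share the rise of Ccl5. Ccl2 had log2 signals of 12.30 in Q111-ASOs, 12.15 in Q111-Control and 12.63 in Q7-Control, a difference of -0.47 between Q111-Control and Q7-Control. Ccl7 had 11.25 in Q111-ASOs, 11.16 in Q111-Control and 11.55 in Q7-Control, a difference of -0.40. Both differences stayed within the central 95% of all genes, which ran from -1.01 to 0.86.

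Of the members with homeostatic or neural roles, Cxcl12 and Cx3cl1 lay at the edge of the 2-fold cut. Cxcl12, the ligand of Cxcr4 and Ackr3, had log2 signals of 9.79 in Q111-ASOs, 9.47 in Q111-Control and 10.47 in Q7-Control, and was just over 2-fold lower in Q111-Control than in Q7-Control. Cx3cl1, also called fractalkine, had 9.74 in Q111-ASOs, 9.50 in Q111-Control and 10.48 in Q7-Control, a 1.97-fold difference in the same direction that fell just short. Q7-Control was the highest array for both genes and Q111-Control the lowest. The call therefore depends on scaling, as Cx3cl1 joins Cxcl12 past 2-fold when the arrays are centred on their medians (2 members lower) and neither passes after quantile normalization (0 members lower). Cxcl16, a membrane-bound ligand of Cxcr6, was nearly level, with 7.54 in Q111-ASOs, 7.51 in Q111-Control and 7.54 in Q7-Control.

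**Figure D2:**
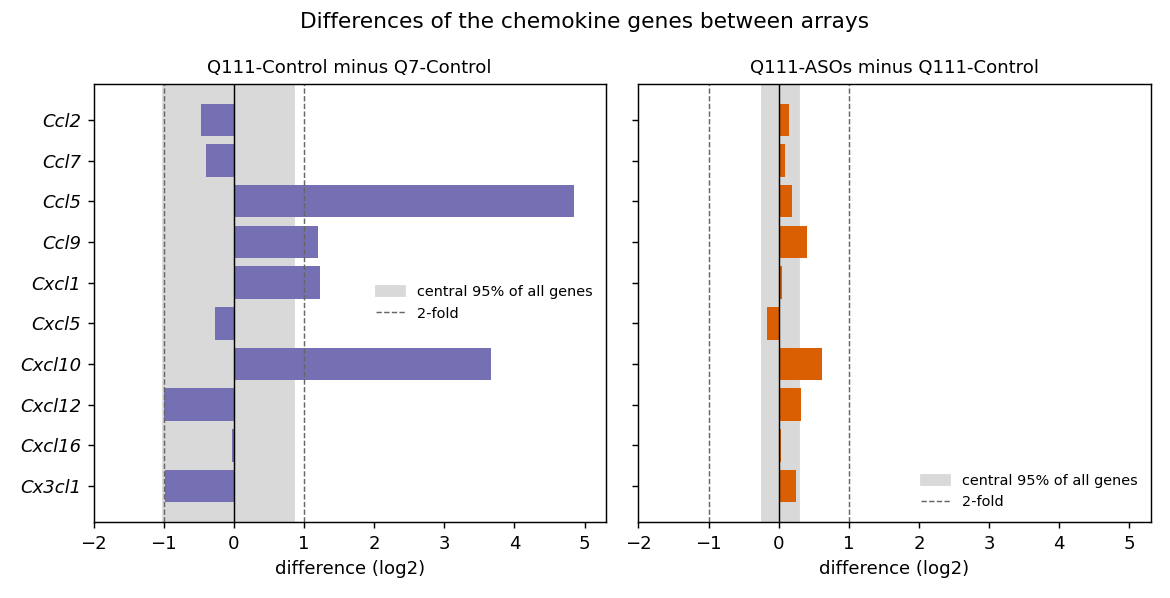
Log2 differences (x axis) of the 10 chemokine genes for Q111-Control minus Q7-Control (left) and Q111-ASOs minus Q111-Control (right), with the central 95% of all genes in grey and 2-fold as dashed lines. Ccl5 and Cxcl10 stand at 4.85 and 3.67 on the left, and no member reaches 2-fold on the right.

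Treatment with the ASOs moved no chemokine gene over 2-fold, neither higher nor lower, in Q111-ASOs against Q111-Control. The background over all genes was 0.104% upward and 0.0271% downward. The members had a median log2 difference of 0.17, with 9 values above 0 and 1 below, while the median over all genes was 0.00, with 27.7% of genes above 0, 22.8% below and 49.4% exactly equal on both arrays. No member was equal on the arrays. The Q111-Control array is shared with the comparison of the cell lines, so an error of that array enters both.

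Cxcl10 had the largest member difference with ASOs, 0.62 on the log2 scale or 1.53-fold, at rank 86 among increases. It was the 1 member past 1.5-fold, where 0.455% of all genes were higher. With ASOs, Ccl9 was 1.32-fold and Cxcl12 1.25-fold higher, and these 3 members lay above the central 95% of all genes, which ended at 0.29. Over the 13952 genes that reached the background level on at least 1 of these arrays it ended at 0.317, just under Cxcl12 at 0.320. Cx3cl1 was 1.19-fold, Ccl5 1.14-fold and Ccl2 1.10-fold higher, inside that range, and Ccl7, Cxcl1 and Cxcl16 were between 1.02-fold and 1.07-fold. Cxcl5 was the member with a negative difference, -0.17, between signals below the background level.

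Set beside Q7-Control, the treated culture was farther away than Q111-Control for Ccl5, Cxcl10, Ccl9 and Cxcl1. It was nearer for Cxcl12, Cx3cl1, Ccl2 and Ccl7. All of these genes had a positive difference with ASOs, so those above Q7-Control moved away from it and those below moved nearer. Q111-ASOs minus Q7-Control was 5.04 for Ccl5, 4.28 for Cxcl10, 1.60 for Ccl9 and 1.28 for Cxcl1, so the same 4 genes were over 2-fold higher, where 2.27% of all genes were. It was -0.68 for Cxcl12 and -0.73 for Cx3cl1, and 0 members were over 2-fold lower, where 2.25% of all genes were. These values use the same arrays as the comparisons above and add no independent measurement.

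Promoter sequence was examined because Ccl5, Cxcl10, Cxcl1 and Ccl9 were higher in the same culture. RefSeq promoters of the assembly GRCm38.p6 were given for 5 of the 10 members (Ccl9, Cxcl1, Cxcl10, Cxcl12 and Cx3cl1), and the 250 bases before each start were searched on both strands. Motifs were the NF-kB consensus, the interferon-stimulated response element (ISRE, GAAANNGAA), the STAT element (GAS, TTCNNNGAA), the TATA box (TATAAA) and a stretch of RE-1, the element that REST binds (TTCAGCACC). Shown are the 3 promoters of genes that were higher in Q111-Control and, for contrast, that of Cx3cl1. Capitals mark matches to NF-kB, ISRE and TATA, read 5′ to 3′ on the strand of the gene. Cxcl10 is at chr5:92348890-92349139 on the minus strand, Cxcl1 at chr5:90890995-90891244 on the plus strand, Ccl9 at chr11:83578637-83578886 on the minus strand and Cx3cl1 at chr8:94771930-94772179 on the plus strand.
Cxcl10: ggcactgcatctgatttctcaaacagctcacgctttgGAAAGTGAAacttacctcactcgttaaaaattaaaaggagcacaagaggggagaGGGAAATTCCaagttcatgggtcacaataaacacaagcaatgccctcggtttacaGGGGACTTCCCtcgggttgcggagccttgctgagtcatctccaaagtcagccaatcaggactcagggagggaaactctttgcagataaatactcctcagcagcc
Cxcl1: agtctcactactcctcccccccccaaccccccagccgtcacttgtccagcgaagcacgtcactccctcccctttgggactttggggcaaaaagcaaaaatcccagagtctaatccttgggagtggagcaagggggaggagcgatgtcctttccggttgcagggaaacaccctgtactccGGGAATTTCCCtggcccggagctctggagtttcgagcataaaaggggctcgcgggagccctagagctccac
Ccl9: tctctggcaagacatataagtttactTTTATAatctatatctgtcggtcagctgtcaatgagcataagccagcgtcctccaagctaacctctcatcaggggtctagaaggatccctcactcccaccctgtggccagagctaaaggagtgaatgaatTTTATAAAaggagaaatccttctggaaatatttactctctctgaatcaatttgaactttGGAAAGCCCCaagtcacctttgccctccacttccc
Cx3cl1: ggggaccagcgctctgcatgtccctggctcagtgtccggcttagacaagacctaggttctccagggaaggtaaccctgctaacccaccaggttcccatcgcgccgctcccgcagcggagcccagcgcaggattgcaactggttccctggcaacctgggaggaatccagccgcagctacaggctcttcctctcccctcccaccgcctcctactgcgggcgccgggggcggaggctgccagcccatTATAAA

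In the promoter of Cxcl10, an ISRE match (GAAAGTGAA) began 213 bases before the start, and NF-kB matches began 159 and 104 bases before it, the nearer one made of overlapping matches. Cxcl1 had 1 NF-kB stretch, 71 bases before the start and matched on both strands, and Ccl9 had 1, 35 bases before it on the opposite strand. NF-kB was thus matched in 3 of the 5 members, ISRE in 1, TATAAA in 2 (Ccl9 and Cx3cl1) and GAS and the RE-1 stretch in 0. Over all 32851 promoters of this length, 7.25% held NF-kB, 7.13% ISRE, 7.02% GAS, 12.4% TATAAA and 0.301% the RE-1 stretch. Cxcl12 held none of the 5. Among 24 other chemokine genes with promoters, NF-kB was matched before Ccl1, Ccl20, Cxcl2 and Cxcl3, and ISRE before Ccl1, Ccl3, Ccl19, Cxcl9 and Cxcl14. Between Q111-Control and Q7-Control, Cxcl14 had a log2 difference of -3.25, Ccl20 -0.07 and Cxcl9 0.00. Ccl1, Ccl3 and Cxcl3 lay below the background level on every array, and Ccl19 had no row of its own. The NF-kB match of Cxcl1, GGGAATTTCC, occurs with the same letters before Cxcl2 and Cxcl3, both of which lay below the background level in the Q111 cultures. A match is a string of letters, and binding was not measured.

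Chemokine genes lie in clusters, read here from the GRCm38.p6 gene order. On chromosome 11, Ccl5 and Ccl9 are followed by Ccl6, Ccl3 and Ccl4 with no other coding gene between them. Those 3 had log2 differences of 0.00, -0.34 and 0.00 between Q111-Control and Q7-Control, with signals from 4.97 to 5.99, and Ccl6 and Ccl3 lay below the background level on every array. Ccl2 and Ccl7 likewise head a row of Ccl11, Ccl12, Ccl8 and Ccl1, which were equal on both arrays, at signals from 3.56 to 5.89 that exceed the background level for Ccl11 alone.

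On chromosome 5 the run is Cxcl5, Ppbp, Pf4, Cxcl3, Cxcl15, Cxcl1 and Cxcl2. Ppbp, a platelet chemokine that also binds Cxcr2, had log2 signals of 9.67 in Q111-ASOs, 9.53 in Q111-Control and 5.98 in Q7-Control, an 11.7-fold difference between Q111-Control and Q7-Control. Of its neighbours, Pf4 lay below the background level on every array, so a change in it could not be measured. Cxcl5 lay below that level in both Q111 cultures, so its difference from Q7-Control is only bounded, as given above. Cxcl2, at the other end beside Cxcl1, had 4.88 in Q111-ASOs, 5.16 in Q111-Control and 5.86 in Q7-Control, where only the last is above the background level.

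Elsewhere on chromosome 5, Cxcl10 sits between Cxcl9 and Cxcl11, the other ligands of Cxcr3. Cxcl9 had the same signal of 6.17 on all 3 arrays. Cxcl11, annotated as a transcribed pseudogene in this C57BL/6J assembly, had 9.51 in Q111-ASOs, 8.53 in Q111-Control and 7.00 in Q7-Control. It ran in the order of Cxcl10, with 2.88-fold between Q111-Control and Q7-Control and a log2 difference of 0.98 between Q111-ASOs and Q111-Control. With the arrays centred on their medians it passed 2-fold with ASOs (1 of 26 other chemokine genes, against 0 as deposited).

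On chromosome 8, Cx3cl1 lies between Ccl22 and Ccl17. Ccl17, a ligand of Ccr4, a chemokine receptor on T cells, had 7.32 in Q111-ASOs, 6.91 in Q111-Control and 9.03 in Q7-Control, so it shared the order of Cx3cl1 with a wider step of -2.12 between Q111-Control and Q7-Control. Ccl22, which binds the same receptor, had 5.16 in Q111-ASOs, 5.31 in Q111-Control and 5.31 in Q7-Control, all below the background level.

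**Figure D3:**
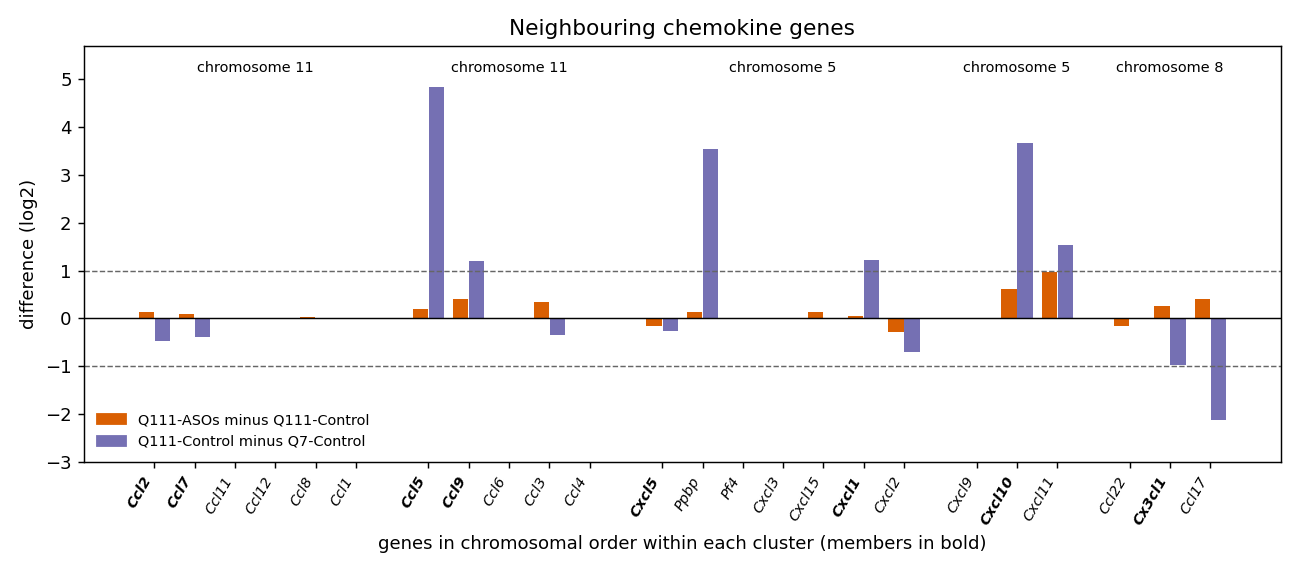
Log2 differences (y axis) of chemokine genes in chromosomal order within 5 clusters, members in bold, for Q111-ASOs minus Q111-Control and Q111-Control minus Q7-Control; dashed lines mark 2-fold. Ccl5 (4.85), Cxcl10 (3.67) and Ppbp (3.55) have the tallest bars, and many short bars, such as that of Pf4, belong to genes below the background level, where a change could not be measured.

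Of 31 other chemokine genes listed, 26 had a row of their own. Between Q111-Control and Q7-Control, 2 were over 2-fold higher (Ppbp and Cxcl11) and 2 over 2-fold lower (Cxcl14 and Ccl17), against the 2.03% and 2.53% of all genes. Cxcl14, a CXC ligand without a settled receptor, had log2 signals of 6.86 in Q111-ASOs, 7.18 in Q111-Control and 10.43 in Q7-Control, a difference of -3.25. It was the largest decrease among the chemokine genes measured. The median of the 26 was 0.00, where 11 were equal on all 3 arrays and 12 lay below the background level on every array.

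Receptors for these ligands were mostly near the background level. Of 24 measured chemokine receptor genes, 13 were below it on every array and 11 were equal on all 3 arrays. Ackr3, a scavenging receptor for Cxcl12, was the receptor over 2-fold higher in Q111-Control, where 2.03% of all genes were. It had log2 signals of 9.10 in Q111-ASOs, 9.10 in Q111-Control and 7.44 in Q7-Control, a difference of 1.66. Cxcr4, the signalling receptor for Cxcl12, had 7.00 in Q111-ASOs, 7.01 in Q111-Control and 7.01 in Q7-Control. Ligand and scavenger thus ran in opposite directions between the lines.

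Cxcr6, the receptor of Cxcl16, had 4.11 in Q111-ASOs, 4.39 in Q111-Control and 6.09 in Q7-Control. Its deposited difference of -1.71 made it the 1 receptor gene counted over 2-fold lower in Q111-Control, where 2.53% of all genes were. Both Q111 signals were below the background level, so the data give only a bound, at least 1.21-fold lower against the higher of that level and the dim signal, and whether it passed 2-fold is not settled. Cxcr3, which reads Cxcl10, had 6.33 in Q111-ASOs, 6.44 in Q111-Control and 6.44 in Q7-Control. Cxcr2, which reads Cxcl1, had 6.18 in Q111-ASOs, 6.21 in Q111-Control and 6.21 in Q7-Control. Ccr2 and Ccr1, which read Ccl2 and Ccl9, lay below the background level on every array. With ASOs, 0 of the 24 receptors were over 2-fold higher or lower, where 0.104% and 0.0271% of all genes were.

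Membrane-bound Cxcl16 and Cx3cl1 are released by the sheddases Adam10 and Adam17, and neither sheddase gene had a deposited difference over 2-fold. Adam10 had log2 signals of 11.17 in Q111-ASOs, 11.07 in Q111-Control and 10.96 in Q7-Control. Adam17 had 9.26 on each array, an equality to the last digit that does not show equal expression. Rhbdf2, an iRhom that carries Adam17 to the cell surface, had 8.50 in Q111-ASOs, 8.42 in Q111-Control and 6.01 in Q7-Control, a difference of 2.41 between Q111-Control and Q7-Control. Mmp2, a gelatinase that can cut Cxcl12, had 11.83 in Q111-ASOs, 11.73 in Q111-Control and 10.23 in Q7-Control, or 2.82-fold between the lines. These were the 2 of 10 chemokine-cleaving protease genes over 2-fold higher in Q111-Control, and 0 were lower, against 2.03% and 2.53% of all genes.

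Interferon-stimulated effector genes, antiviral genes that interferon induces as it does Cxcl10, were over 2-fold higher in Q111-Control in 12 of 17 measured cases and over 2-fold lower in 1, the tetherin gene Bst2. As for the receptors, these counts use the deposited values, in which 2.03% of all genes were higher and 2.53% lower. With values raised to the background level 11 were higher, since Gbp3, an interferon-induced GTPase gene below that level in Q7-Control, was then only bounded at 1.93-fold or more. Their median log2 difference was 1.38, against 0.00 over all genes. Ifit1, which binds foreign RNA, had 11.65 in Q111-ASOs, 11.53 in Q111-Control and 6.16 in Q7-Control. Oasl2, an antiviral member of the oligoadenylate synthetase family, had 9.42 in Q111-ASOs, 9.33 in Q111-Control and 5.57 in Q7-Control, at least 11.4-fold higher in Q111-Control against the background level. With ASOs, 0 of the 17 passed 2-fold, where 0.104% of all genes were higher and 0.0271% lower. The differences of the 17 ran from -0.18 to 0.32, below the 0.62 of Cxcl10 and 0.98 of Cxcl11.

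Of 19 measured interferon signalling genes, 2 passed 2-fold upward in Q111-Control and 0 downward, against 2.03% and 2.53% of all genes. The 2 were interferon regulatory factor genes. Irf7 had 9.11 in Q111-ASOs, 9.02 in Q111-Control and 7.00 in Q7-Control, and Irf9 had 8.80 in Q111-ASOs, 8.80 in Q111-Control and 7.75 in Q7-Control. Irf9 had a difference of 1.06 and did not pass 2-fold when the arrays were centred (1 gene over 2-fold). The interferon genes Ifnb1 and Ifng themselves were below the background level on every array.

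Of 13 measured NF-kB factor and inhibitor genes, 0 were over 2-fold higher and 1 over 2-fold lower in Q111-Control, against 2.03% and 2.53% of all genes. The lower one was the feedback inhibitor gene Tnfaip3, with 7.36 in Q111-ASOs, 7.32 in Q111-Control and 8.43 in Q7-Control. Of 13 other NF-kB target genes, 1 had a difference above 0, 8 below 0 and 4 were equal. Over all genes 26.9% were above 0, 29.7% below and 43.4% equal. The 8 included differences as small as -0.005 for Csf2 and -0.03 for Lcn2. Past 2-fold, the apoptosis inhibitor gene Birc3 was higher, with a difference of 1.99, and the adhesion gene Vcam1 and the prostaglandin synthase gene Ptgs2 were lower, with -2.08 and -1.73. The cytokine genes Il6 and Il1b were below the background level on every array.

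Upstream receptors of inflammatory signals included 3 of 14 genes over 2-fold higher and 1 over 2-fold lower in Q111-Control, against 2.03% and 2.53% of all genes. The 14 had a median difference of 0.51, against 0.00 over all genes. The higher ones were the endotoxin receptor gene Tlr4, with a difference of 1.51, the tumour necrosis factor receptor gene Tnfrsf1b, with 1.40, and the interleukin receptor gene Il1r1, with 1.18. Tlr3, which senses double-stranded RNA, had log2 signals of 8.22 in Q111-ASOs, 7.88 in Q111-Control and 8.88 in Q7-Control, a difference of -1.01. With ASOs, 0 of the 14 passed 2-fold, where 0.104% of all genes were higher and 0.0271% lower.

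**Figure D4:**
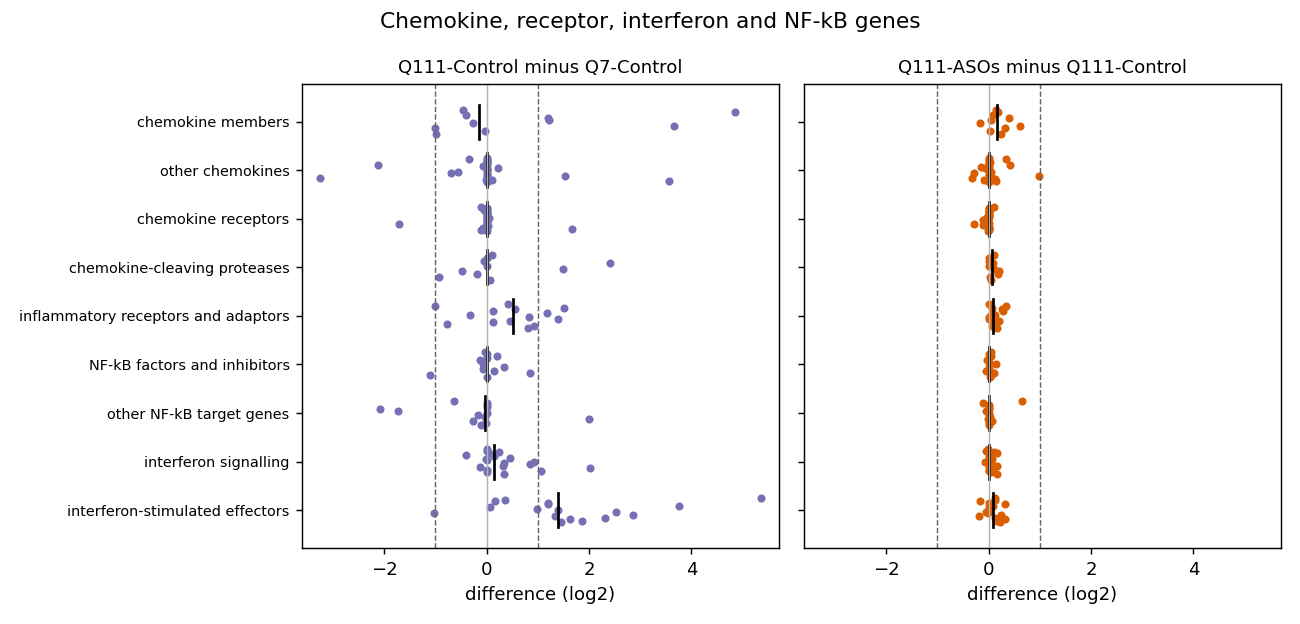
Log2 differences (x axis) of single genes (points) and list medians (black bars) for Q111-Control minus Q7-Control (left) and Q111-ASOs minus Q111-Control (right); dashed lines mark 2-fold. The interferon-stimulated effectors have a median of 1.38 on the left. Every point on the right lies within 2-fold, a cut that 0.131% of all genes passed there.

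No macrophage, T cell or neutrophil marker measured differed over 2-fold between the lines, a cut that 4.57% of all genes passed in either direction. In lists this short, a count of 0 is close to that share. Many of these markers lay below the background level on every array, where a change could not be measured. Of 14 macrophage and microglia markers, 0 differed over 2-fold between Q111-Control and Q7-Control, with differences from -0.47 to 0.32, and 7 lay below the background level on every array, Itgam, Adgre1 and Ptprc among them. Others were above it on every array, such as Cd68, with 9.18 in Q111-ASOs, 9.08 in Q111-Control and 9.18 in Q7-Control, and Tmem119, with 7.91 in Q111-ASOs, 7.67 in Q111-Control and 8.14 in Q7-Control. The summed linear signal of the 14 genes was 1413 in Q111-ASOs, 1368 in Q111-Control and 1463 in Q7-Control. The 4 T cell markers also lay below the background level on every array, as did 4 of 5 neutrophil markers. Whether immune cells contributed to the chemokine values was not tested. Fibroblast and mesenchymal markers did move, with 3 of 8 over 2-fold higher in Q111-Control and 0 lower, against 2.03% and 2.53% of all genes. Col1a2 had 11.49 in Q111-ASOs, 11.29 in Q111-Control and 7.49 in Q7-Control, and Pdgfra had 11.89 in Q111-ASOs, 11.58 in Q111-Control and 9.85 in Q7-Control. The summed linear signal of the 8 genes was 19393 in Q111-ASOs, 17268 in Q111-Control and 9666 in Q7-Control, and the part of this difference in the chemokine values was not tested. In RNA of whole cultures, more cells that express a gene and more RNA per cell cannot be told apart.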

How the data were processed

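The authors deposited 1 log2 signal for each transcript cluster and array (Affymetrix Mouse Gene ST), made with Partek software. Its version, and how background, scaling and probe sets were handled, were not stated in any source read. The 3 arrays, 1 per group, have 41345 rows each. Rows were named from the platform annotation and brought up to date by gene ID from the RefSeq genes of GRCm38.p6 (23328 of 23521 rows with 1 symbol matched). For the 1082 genes with several rows the row with the highest mean was kept, and a row listing several symbols was left unnamed. Values were used as deposited, and differences were taken on the log2 scale. On all 3 arrays 35.5% of genes were equal to the last digit given, for a reason not stated. An equal value therefore does not show equal expression. Depth is not defined for arrays, whose number limits the precision. The background level is the 95th percentile of olfactory receptor genes on each array.

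The members and lists were chosen with earlier results of these data known. Named genes are the members, up to 4 genes over 2-fold of each list with the largest differences, receptors and sheddases of the members, and cluster neighbours. The closest genes by distance of signals are not reported, since that measure compares levels of different probes. Neighbours, markers and genes named for being within 2-fold were chosen after their values were seen. Calculations were tested on simulated data and used Python 3.11.15, numpy 2.4.6, pandas 2.3.3 and matplotlib 3.10.9. Listed genes without a row of 1 symbol were not analysed here.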

Additional observations from a re-analysis of the deposited data

How the results depend on the processing

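Values were taken as stable when they moved by less than 0.13 on the log2 scale, the SD over genes of Q111-ASOs minus Q111-Control. All 120 alternative values of the members stayed within it. The alternatives were centred arrays, quantile normalization, averaging over a gene's rows and values raised to the background level. Averaging cannot move the 10 members, with 1 row each. Centring shifts all genes of a comparison alike, by -0.06 at the most, so it could not pass 0.13. Raising values to the background level could change Cxcl5 alone. The total of 120 therefore says little, as quantile normalization alone was free to move every member. The medians of the members also moved by less than 0.13. Of members lower in Q111-Control than in Q7-Control, 1 as deposited, there were 2 with centred arrays, 0 after quantile normalization, 2 at 1.5-fold and 0 at 3-fold. The split of 4 higher to 1 lower thus became 4 to 2 or 4 to 0, since Cxcl12 and Cx3cl1 lie at the criterion. At 3-fold, 2 members were higher in Q111-Control, and at 1.5-fold 1 was higher with ASOs; the changed criterion accounts for these. Of 264 values of genes named from the lists, 5 moved, for Cxcr6 and Oasl2 with values raised to the background level, which lifts dim signals. Of 192 list counts, 6 moved by more than 1.5 times or to or from 0, and smaller moves, as from 12 to 11 interferon-stimulated effectors with values raised to the background level, were not counted. The alternatives for the lists and for Q111-ASOs minus Q7-Control were chosen after seeing the data. No paired analysis was possible because no group holds more than 1 array.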
